A study of Mus musculus with 12 samples.

Results

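The immediate-early genes examined here were Fos, Fosb, Jun, Junb, Atf3, Egr1, Nr4a1, Ier2, Ier3 and Dusp1, 10 of the 13712 genes tested and of 20284 named on the array. They were chosen by name: each symbol was matched to the RefSeq accession of its probe, and each of the 10 had 1 probe, Fos in 10 copies. All 10 probes lay well above background on 12 of 12 arrays, and none was saturated. The arrays were one-colour Agilent arrays of Cy3-labelled RNA from mouse bone marrow cells, and each of 2 sorted populations had 6 conditions with a single array per condition. GMPs are granulocyte-macrophage progenitors, and LSK cells, sorted as Lin- Sca-1+ c-Kit+, hold the stem and multipotent cells. All donor cells were C57BL/6 fetal liver cells that had repopulated the marrow of recipient mice, wild-type controls included. The conditions were Tet2KD/KDEzh2-/- with RAEB (refractory anaemia with excess blasts), Tet2KD/KDEzh2-/- with MDS/MPN (myelodysplastic/myeloproliferative neoplasm), Tet2KD/KDEzh2-/- without disease, Ezh2-/-, Tet2KD/KD and Wild-type. Tet2KD/KD is a hypomorphic knockdown allele of a methylcytosine dioxygenase, Ezh2-/- is a null allele of the histone methyltransferase of PRC2, and Tet2KD/KDEzh2-/- without disease is called the double mutant below. The labels give neither the recipients' age, nor the number of mice or their pooling, nor which cells the recipients kept of their own.

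Immediate-early genes are transcribed within minutes of a growth factor, cytokine or stress signal, without new protein synthesis, because their promoters are held ready by factors such as SRF and CREB that MAP kinases and their downstream kinases switch on. Their products are mostly transcription factors and feedback inhibitors, and their messages are short-lived. In haematopoietic cells several of them take part in quiescence and in myeloid differentiation, and as a class they are also known to respond to dissociation and sorting of tissue. The labels give no handling times, so handling and condition cannot be told apart on any single array here.

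The promoters show which signal-responsive letters the genes share next to their starts. RefSeq windows of 300 bases around the start (GRCm38.p6) were held for 8 of the 10 genes. The cAMP response element half-site TGACG, searched on both strands, was present in 6 of these 8 promoters, those of Fos, Fosb, Junb, Atf3, Nr4a1 and Dusp1. It was present in 20.8% of 32851 promoters of the same length, and in 29.5% of the 13295 whose GC content lay within the 54.0 to 72.3% of these 8 genes. The full element TGACGTCA, which contains the half-site on both strands, occurred in Dusp1 alone among the 8, and in 1.8% of all promoters. The AP-1 site, TGACTCA or TGAGTCA, was in 0 of 8 and in 5.2% of all promoters, and the CArG box bound by SRF was in 0 of 8 and in 1.6%. A match is a description of letters, and its absence says only that they are not in this window. The 5 promoters below are those of Fos, of Nr4a1 and Atf3, whose signal ranged most in LSK cells, of Dusp1, which holds the full element, and of Jun, which holds no match. They are chr12:85473640-85473939 on the plus strand for Fos, chr15:101266596-101266895 on the plus strand for Nr4a1 and chr1:191183284-191183583 on the minus strand for Atf3. The others are chr17:26508423-26508722 on the minus strand for Dusp1 and chr4:95052173-95052472 on the minus strand for Jun. Each is written 5′ to 3′ along its gene, with the half-site and the full element in capitals.
Fos: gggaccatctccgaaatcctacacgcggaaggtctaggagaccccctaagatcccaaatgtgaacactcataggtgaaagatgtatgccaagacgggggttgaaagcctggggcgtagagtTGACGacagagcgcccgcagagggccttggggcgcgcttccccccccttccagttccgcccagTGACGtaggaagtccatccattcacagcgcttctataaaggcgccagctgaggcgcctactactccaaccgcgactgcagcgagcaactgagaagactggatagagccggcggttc
Nr4a1: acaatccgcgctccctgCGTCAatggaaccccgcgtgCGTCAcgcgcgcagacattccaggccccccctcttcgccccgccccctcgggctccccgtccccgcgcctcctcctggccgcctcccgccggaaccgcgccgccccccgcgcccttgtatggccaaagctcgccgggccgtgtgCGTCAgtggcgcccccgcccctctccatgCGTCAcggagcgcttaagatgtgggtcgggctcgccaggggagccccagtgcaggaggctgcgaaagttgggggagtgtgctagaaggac
Atf3: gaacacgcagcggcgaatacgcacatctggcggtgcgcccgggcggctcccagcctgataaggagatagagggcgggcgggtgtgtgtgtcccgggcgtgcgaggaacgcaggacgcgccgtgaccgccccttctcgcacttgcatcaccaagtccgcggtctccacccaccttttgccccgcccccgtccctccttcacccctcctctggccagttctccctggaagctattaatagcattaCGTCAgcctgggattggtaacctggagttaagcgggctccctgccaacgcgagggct
Dusp1: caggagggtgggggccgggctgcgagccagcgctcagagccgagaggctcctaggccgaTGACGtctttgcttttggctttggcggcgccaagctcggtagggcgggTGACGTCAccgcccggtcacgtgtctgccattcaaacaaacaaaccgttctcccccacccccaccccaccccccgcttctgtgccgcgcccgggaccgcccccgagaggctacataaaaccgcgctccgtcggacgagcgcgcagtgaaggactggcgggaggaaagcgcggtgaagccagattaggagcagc
Jun: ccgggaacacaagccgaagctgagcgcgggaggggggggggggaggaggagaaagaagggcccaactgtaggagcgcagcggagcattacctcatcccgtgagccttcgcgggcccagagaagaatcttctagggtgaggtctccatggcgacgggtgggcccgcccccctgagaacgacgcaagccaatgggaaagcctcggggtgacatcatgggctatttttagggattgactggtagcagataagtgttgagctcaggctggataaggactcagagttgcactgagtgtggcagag
The half-sites of Fos began 129 and 66 bases before the start, those of Nr4a1 233, 213, 69 and 40 bases before it, and that of Atf3 7 bases before it. Dusp1 held a half-site 191 bases before its start and the full element from 143.

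Signals are given as log2 of the processed signal minus log2 of the array's 75th percentile, so 0 marks the array's own 75th percentile, and levels of different probes are not set against each other. The 75th percentile was 168.5 to 389.4 between arrays, well above background were 45.6 to 52.3% of spots, and replicate probes had a median coefficient of variation of 4.63 to 5.46%. With 1 array for each cell type and condition no single value has a replicate error, and p-values measure the spread between arrays of different cell types and conditions, not between mice. Both diseased GMP arrays were on 1 slide, both diseased LSK arrays on another and all 8 disease-free arrays on the remaining slide, so disease and slide cannot be told apart. Tet2 read -3.09 to -0.64 on the 4 GMP arrays that carry the knockdown and 1.51 and 1.57 on the 2 that do not, and -1.61 to -0.79 against 0.12 and 0.44 in LSK cells. The Ezh2 probe read 2.503 to 3.40 on all arrays and does not separate the null arrays, so it checks no label. Xist, expressed in female cells, lay below 0 on 6 arrays, the Tet2KD/KD and Ezh2-/- arrays of both cell types and both diseased GMP arrays, and above 0 on the other 6. The 8 GMP markers averaged 7.39 to 8.15 on GMP arrays and 2.28 to 5.18 on LSK arrays, highest there with MDS/MPN. The 10 LSK markers averaged -0.07 to 0.61 on GMP arrays and 2.81 to 3.77 on LSK arrays.

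The AP-1 subunits moved together over the arrays. Fos read 7.66 on the GMP array with RAEB, 7.24 with MDS/MPN, 6.08 in the double mutant, 6.33 in Ezh2-/-, 7.35 in Tet2KD/KD and 6.43 in wild-type GMPs. Fos read 7.27 on the LSK array with RAEB, 4.70 with MDS/MPN, 7.59 in the double mutant, 7.54 in Ezh2-/-, 7.96 in Tet2KD/KD and 6.60 in wild-type LSK cells. The LSK array with MDS/MPN was the lowest of all 12 for Fos, and its 10 spots on 1 array had an SD of only 0.031 to 0.060. Fosb read 6.41 with RAEB, 5.83 with MDS/MPN, 3.18 in the double mutant, 4.33 in Ezh2-/-, 5.25 in Tet2KD/KD and 3.75 in wild-type GMPs. On LSK arrays Fosb read 5.05 with RAEB, 2.16 with MDS/MPN, 5.53 in the double mutant, 5.97 in Ezh2-/-, 5.96 in Tet2KD/KD and 4.37 in wild-type cells. Fosb thus spanned 14.0-fold among LSK arrays and 9.37-fold among GMP arrays, with the ends at the same arrays as Fos in GMPs.

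Jun, the subunit that pairs with Fos proteins, varied least in LSK cells after Junb. It read 9.07 with RAEB, 8.43 with MDS/MPN, 7.35 in the double mutant, 7.88 in Ezh2-/-, 8.72 in Tet2KD/KD and 7.93 in wild-type GMPs. On LSK arrays Jun read 7.89 with RAEB, 7.04 with MDS/MPN, 8.88 in the double mutant, 8.62 in Ezh2-/-, 9.07 in Tet2KD/KD and 8.39 in wild-type cells. Both diseased LSK arrays lay below every LSK array without disease, a range of 4.08-fold. Junb, a subunit that restrains proliferation of myeloid progenitors in mice, read 0.94 with RAEB, -0.59 with MDS/MPN, -1.19 in the double mutant, -1.58 in Ezh2-/-, -0.23 in Tet2KD/KD and -0.98 in wild-type GMPs. On LSK arrays Junb read 0.95 with RAEB, -0.004 with MDS/MPN, 1.33 in the double mutant, 1.62 in Ezh2-/-, 1.60 in Tet2KD/KD and 0.39 in wild-type cells. The GMP array with RAEB was the one GMP array above 0 for Junb.

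Atf3, a stress-induced factor of the ATF/CREB family, read 5.75 with RAEB, 3.82 with MDS/MPN, 1.82 in the double mutant, 2.48 in Ezh2-/-, 4.50 in Tet2KD/KD and 2.55 in wild-type GMPs. On LSK arrays Atf3 read 2.32 with RAEB, -1.12 with MDS/MPN, 3.51 in the double mutant, 4.51 in Ezh2-/-, 4.36 in Tet2KD/KD and 1.79 in wild-type cells, a range of 49.7-fold. The wild-type LSK array was low for Atf3, below every other LSK array but that with MDS/MPN. Egr1, a zinc-finger factor of early growth response, read 5.18 with RAEB, 4.13 with MDS/MPN, 0.82 in the double mutant, 2.21 in Ezh2-/-, 3.51 in Tet2KD/KD and 1.89 in wild-type GMPs. On LSK arrays Egr1 read 5.59 with RAEB, 2.56 with MDS/MPN, 6.07 in the double mutant, 6.06 in Ezh2-/-, 6.47 in Tet2KD/KD and 5.15 in wild-type cells. The LSK array with MDS/MPN stood apart from the other 5 LSK arrays for Egr1, at 2.56 against 5.15 or more.

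Nr4a1, an orphan nuclear receptor that limits proliferation of mouse stem cells, had the widest range of the 10 genes. It read 7.18 with RAEB, 4.63 with MDS/MPN, 2.57 in the double mutant, 3.12 in Ezh2-/-, 4.62 in Tet2KD/KD and 2.93 in wild-type GMPs. On LSK arrays Nr4a1 read 6.16 with RAEB, 2.88 with MDS/MPN, 8.48 in the double mutant, 8.86 in Ezh2-/-, 8.51 in Tet2KD/KD and 7.44 in wild-type cells. Its LSK arrays spanned 63.2-fold and its GMP arrays 24.5-fold, and without disease the groups did not overlap, at 2.57 to 4.62 in GMPs against 7.44 to 8.86 in LSK cells. With disease this order was turned, at 4.63 in GMPs against 2.88 in LSK cells with MDS/MPN and at 7.18 against 6.16 with RAEB.

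Ier2, a nuclear early response protein, read 3.81 with RAEB, 3.09 with MDS/MPN, 1.49 in the double mutant, 1.45 in Ezh2-/-, 3.06 in Tet2KD/KD and 1.97 in wild-type GMPs. On LSK arrays Ier2 read 3.28 with RAEB, 1.98 with MDS/MPN, 3.83 in the double mutant, 3.80 in Ezh2-/-, 4.14 in Tet2KD/KD and 2.95 in wild-type cells. Ier3, linked to cell survival under stress, read 4.07 with RAEB, 3.86 with MDS/MPN, 2.33 in the double mutant, 2.57 in Ezh2-/-, 3.60 in Tet2KD/KD and 2.89 in wild-type GMPs. The same 3 conditions, RAEB, MDS/MPN and Tet2KD/KD, were the high ones for both genes in GMPs. On LSK arrays Ier3 read 3.91 with RAEB, 2.26 with MDS/MPN, 4.94 in the double mutant, 4.89 in Ezh2-/-, 5.24 in Tet2KD/KD and 4.21 in wild-type cells. Dusp1, the phosphatase that inactivates MAP kinases and so feeds back on the genes above, read 5.99 with RAEB, 5.96 with MDS/MPN, 4.77 in the double mutant, 4.99 in Ezh2-/-, 5.76 in Tet2KD/KD and 5.27 in wild-type GMPs. On LSK arrays Dusp1 read 5.44 with RAEB, 3.08 with MDS/MPN, 6.16 in the double mutant, 5.76 in Ezh2-/-, 6.69 in Tet2KD/KD and 5.15 in wild-type cells. Its GMP range of 2.33-fold was the narrowest of the 10 genes there.

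**Figure D1:**
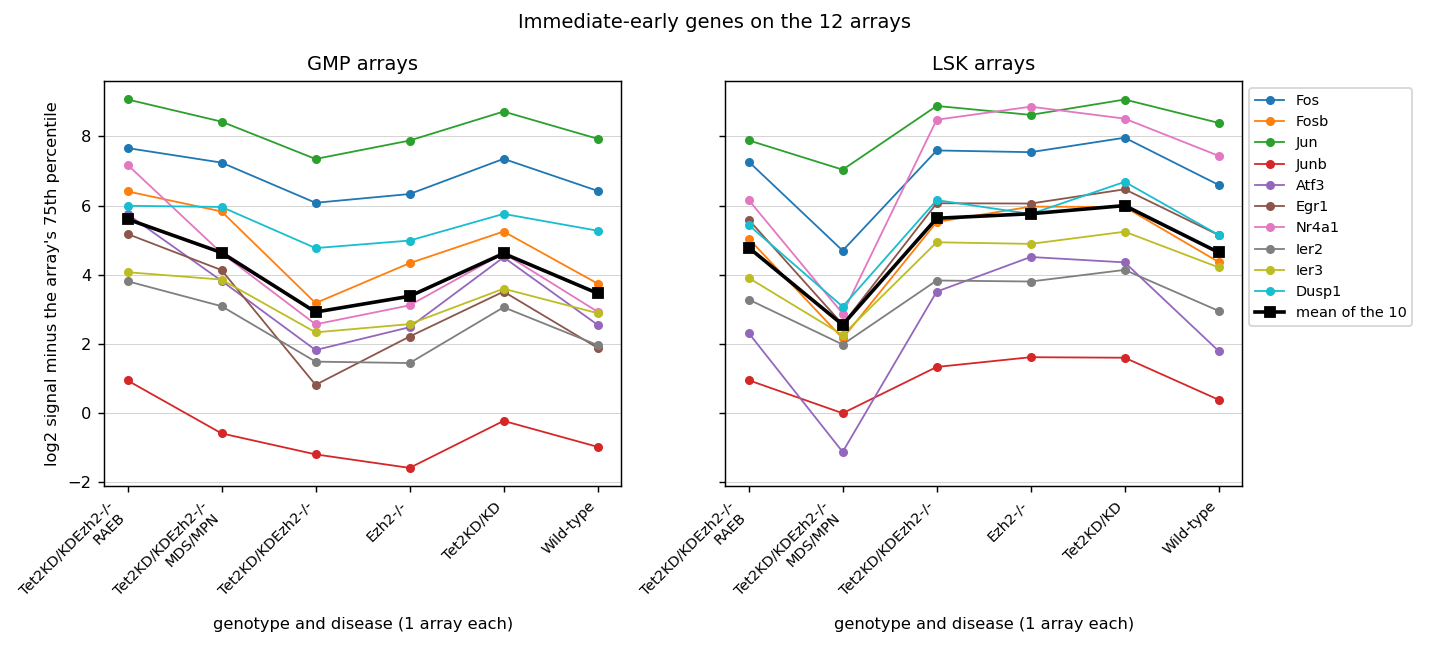
Log2 signal minus the array's 75th percentile (vertical axis) of the 10 immediate-early genes, 1 point per array, with the mean of the 10 in black; GMP arrays on the left, LSK arrays on the right. The lines join arrays only to show that the genes are mostly high and low at the same ones: the mean runs from 2.92 to 5.61 in GMPs and from 2.55 to 6.00 in LSK cells.

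One end of the order of the arrays in each cell type was shared by all 10 genes, while the order of the other arrays differed between genes. The LSK array with MDS/MPN was the lowest LSK array for 10 of 10 and the GMP array with RAEB the highest GMP array for 10 of 10. The lowest GMP array was the double mutant for 8 genes and Ezh2-/- for Junb and Ier2. The highest LSK array was Tet2KD/KD for 6 genes and Ezh2-/- for Fosb, Junb, Nr4a1 and Atf3. The mean of the 10 genes was 5.61 with RAEB, 4.64 with MDS/MPN, 2.92 in the double mutant, 3.38 in Ezh2-/-, 4.61 in Tet2KD/KD and 3.46 in wild-type GMPs. In LSK cells that mean was 4.79 with RAEB, 2.55 with MDS/MPN, 5.63 in the double mutant, 5.76 in Ezh2-/-, 6.00 in Tet2KD/KD and 4.64 in wild-type cells. The median range of the 10 genes was 2.45 among GMP arrays, against 0.91 over all genes tested, and 3.44 among LSK arrays, against 0.72. A range over 2 was found for 6 of the 10 in GMPs and 9 of the 10 in LSK cells, and for 12.2% and 8.11% of all genes.

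Co-variation was measured after each cell type's mean was subtracted. Over the 12 arrays the 45 pairs of genes had Pearson correlations of 0.743 to 0.982 with a median of 0.929, and a median Spearman correlation of 0.909. Of these pairs 44 of 45 exceeded 0.8, as did 2.9% of all pairs of genes tested, whose median was 0.06. The points of each correlation share array, slide, RNA and scaling, so they carry no p. The closest pairs were Fosb with Egr1 at 0.982, Fos with Dusp1 at 0.976 and Jun with Ier3 at 0.963. The loosest were Junb with Dusp1 at 0.743, Fos with Junb at 0.823 and Junb with Ier3 at 0.825. Junb also had the lowest correlation with the mean of the other 9 genes, 0.882, and Atf3 the highest, 0.981. The first principal component held 92.5% of the variance of the 10 genes. Per unit of change in their mean, Nr4a1 changed by 1.70, Atf3 by 1.56 and Egr1 by 1.28, whereas Jun changed by 0.58 and Junb by 0.61.

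Similar co-variation was measured within each cell type and without the diseased arrays. Among the 6 GMP arrays alone the median correlation was 0.945, among the 6 LSK arrays 0.963, and among the 8 arrays of 1 slide without disease 0.907, with 90.2% of the variance on the first component. Without the GMP array with RAEB and the LSK array with MDS/MPN, the farthest from their cell type's mean at 1.503 and -2.34, the median was 0.882. That last setting was chosen after the values were seen. Array quality moved with the genes too: the mean of the 10 had a correlation of -0.63 with log2 of the 75th percentile and of -0.66 with the percentage of spots above background over the 12 arrays. The LSK array with MDS/MPN had a 75th percentile of 369.2 and the LSK array with RAEB 389.4, against 214.9 to 275.3 on the other LSK arrays, while the diseased GMP arrays had 168.5 and 188.8, against 194.8 to 245.0. The part of array quality in the co-variation was not tested.

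**Figure D2:**
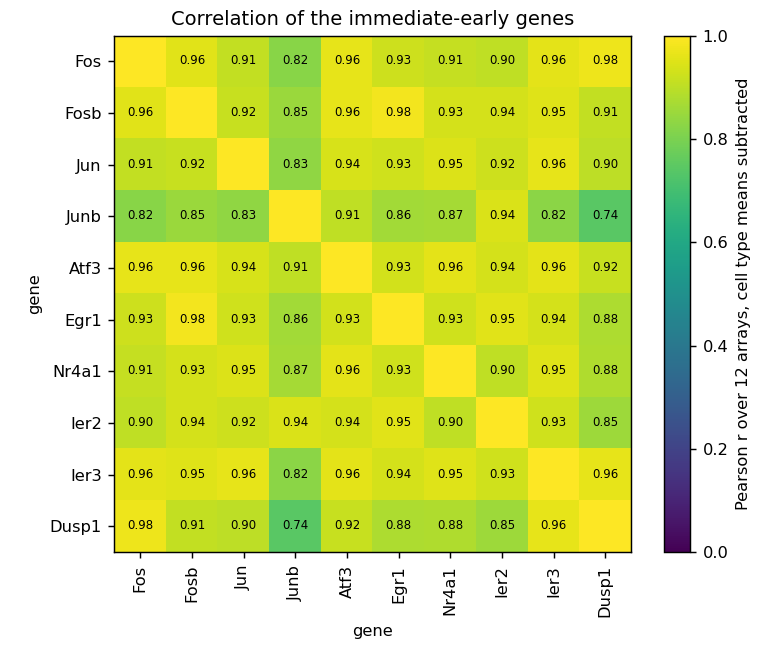
Pearson correlation of each pair of immediate-early genes over 12 arrays after the cell type means were subtracted (colour scale 0 to 1, values in the cells). The lowest values lie in the row of Junb, down to 0.743 with Dusp1, and the highest is 0.982 for Fosb with Egr1.

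The genes whose pattern was most like the mean of the 10 were largely of the same class. The 10 closest were Jund (0.981), Ckmt1 (0.975), Zfp36 (0.966), Ppp1r15a (0.964), Pnrc1 (0.963), Klf4 (0.955), Klf2 (0.948), Btg1 (0.944), Btn1a1 (0.943) and Csrnp1 (0.941), over 12 arrays with cell type means subtracted, or 11 for Zfp36. Of these, 7 stand on a list of 58 other immediate-early and early response genes. That list was chosen with earlier results of these data known, so the 7 are a description and no independent support. Jund, a further AP-1 subunit, read 4.84 in LSK cells with MDS/MPN against 6.5 to 7.72 on the other LSK arrays. Zfp36 encodes a protein that speeds decay of AU-rich messages, and read 0.60 there, against 2.84 to 3.93 on the 4 other LSK arrays with a value. Ckmt1, a mitochondrial creatine kinase, is on no such list and spanned only 2.24 to 4.12 in LSK cells. The most opposite were Agps, an enzyme of ether lipid synthesis (-0.91), Nxpe2 (-0.91), Csgalnact2 (-0.90), the formin gene Daam1 (-0.89) and the clathrin heavy chain gene Cltc (-0.88). Over all genes tested 238, or 1.74%, exceeded 0.8.

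The wider early response list followed the 10 genes, and the transcripts of the kinases and factors above them, taken as a list, did not. Of the 58 listed early genes 56 were tested, with a median correlation to the mean of the 10 of 0.85, and 32 exceeded 0.8. The lowest of them were Cebpd (-0.13), Nfkbiz (-0.08) and Myc (0.11). Of 30 upstream kinases and factors, among them Srf, Elk1, Creb1 and the ERK, JNK and p38 kinases, 0 exceeded 0.8, and their median was -0.02. Single genes of this list ran from -0.74 to 0.67, so its mean can hide opposite changes. The arrays measure transcripts and not the activity of the kinases. Their list mean moved little, 2.21 to 2.46 on GMP arrays and 2.23 to 2.39 on LSK arrays. Of 13 heat shock and chaperone genes tested 2 exceeded 0.8, with a median of 0.10, and their list mean ran from 3.73 to 4.83 on GMP arrays and from 3.50 to 4.38 on LSK arrays.

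**Figure D3:**
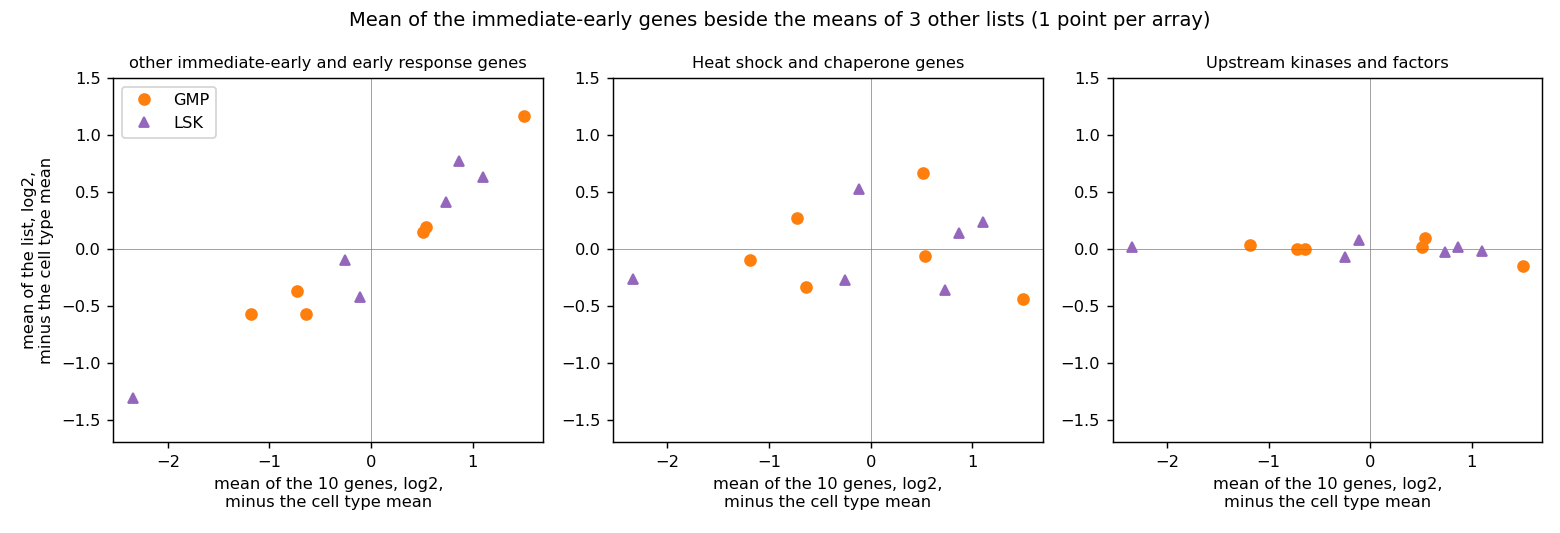
Mean of the 10 immediate-early genes (horizontal axes, log2, cell type mean subtracted) against the mean of 3 other gene lists on the same scale, 1 point per array; circles are GMP arrays and triangles LSK arrays. The early response list increases with the 10 genes (correlation 0.966), while the kinase list stays within a narrow band (correlation -0.34) and the heat shock list is scattered (0.12).

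Some lists of cell type markers also moved with the 10 genes. Of the progenitor lists, the mean of the GMP markers had a correlation with the mean of the 10 genes of 0.46 among GMP and -0.93 among LSK arrays. The LSK markers had 0.74 among GMP and 0.66 among LSK arrays. The mean of the neutrophil markers had a correlation with the mean of the 10 genes of 0.85 among the 6 GMP arrays and -0.93 among the 6 LSK arrays, and that of the monocyte and macrophage markers 0.57 among GMP and -0.69 among LSK arrays. The mast and basophil markers were negative in both, at -0.44 in GMPs and -0.94 in LSK cells. The T and NK markers were positive in both, at 0.26 in GMPs and 0.85 in LSK cells, as were the B lineage markers, at 0.57 in GMPs and 0.09 in LSK cells. The erythroid markers had 0.12 in GMPs and -0.91 in LSK cells, and the megakaryocyte markers 0.75 in GMPs and -0.16 in LSK cells. Of 10 neutrophil markers, 6 to 9 lay above background on each GMP array and 7 to 10 on each LSK array. Their summed signal, in units of the 75th percentile, was 702 with RAEB and 180 with MDS/MPN against 29.2 to 51.6 on the other GMP arrays, and 344 in LSK cells with MDS/MPN and 91.9 in wild-type LSK cells against 10.9 to 20.6 on the other LSK arrays. The 2 LSK arrays with most neutrophil signal were thus the 2 with the lowest mean of the 10 genes, while in GMPs the 2 with most were the 2 highest. The neutrophil markers differed among themselves. S100a8 and S100a9, granulocyte calcium-binding protein genes, read 8.50 and 8.08 on the GMP array with RAEB, against 3.30 to 5.11 and 2.72 to 3.90 on the disease-free GMP arrays. The lactoferrin gene Ltf read -2.56 with RAEB, against -2.46 in wild-type GMPs, and Camp 1.21 with RAEB, against 1.35 in Tet2KD/KD GMPs. The chemokine receptor gene Cxcr2 was lower on both diseased GMP arrays, at -1.36 with RAEB and -1.77 with MDS/MPN, against -0.90 to -0.50 on the others. The megakaryocyte list, 5 markers of 5 above background on every array, summed to 31.9 with RAEB and 12.7 with MDS/MPN against 2.01 to 3.50 on the other GMP arrays, and to 11.2 to 30.5 on LSK arrays. The part of such cells in the result was not tested, and in sorted bulk RNA fewer expressing cells and less RNA per cell cannot be told apart.

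Disease went with opposite differences in the 2 cell types. Against the double mutant, the GMP array with RAEB was higher by at least 2-fold for 10 of 10 genes, against 8.25% of genes tested, from 1.22 for Dusp1 to 4.61 for Nr4a1 with a median of 2.23. The GMP array with MDS/MPN was higher by at least 2-fold for 9 of 10, all but Junb, against 4.7% of genes, with a median of 1.56 and the largest difference, 3.32, for Egr1. The LSK array with MDS/MPN was lower by at least 2-fold for 10 of 10, against 6.03% of genes, from -1.34 for Junb to -5.60 for Nr4a1. The LSK array with RAEB was lower by at least 2-fold for Nr4a1, Ier3 and Atf3, 3 of 10 against 6.06% of genes, although all 10 differences were negative, with a median of -0.63. These signs held for all 10 genes with quantile normalization and with normexp background correction. These pairs of single arrays share the double mutant array of their cell type, and no error attaches to them.

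The shared contrast of diseased against other double mutants therefore stood near 0, with a median of 0.007 over the 10 genes and of 0.10 over all genes. None of the 10 passed, against 0.00729% of genes tested (limma, 1 gene at an adjusted p under 0.05 and 1883 at an unadjusted p under 0.05). The mean of the 2 diseased arrays minus the double mutant was 1.21 to 3.84 in GMPs and -3.96 to -0.86 in LSK cells. A limma term subtracted GMP minus LSK averaged over the 8 arrays without disease from GMP minus LSK on the diseased arrays. Its reference is thus all disease-free conditions, not the double mutant alone. Chosen after the opposite signs had been seen, it passed for 7 of 10 genes, against 7.67% of genes in either direction and 4.3% in this one. This difference was 6.40 for Nr4a1 (SE 0.62, adjusted p = 0.0121), 4.89 for Atf3 (SE 0.88, adjusted p = 0.0317) and 4.41 for Egr1 (SE 0.77, adjusted p = 0.0309). Fosb had 3.85 (SE 0.74, adjusted p = 0.0352), Ier3 2.86 (SE 0.51, adjusted p = 0.0317), Ier2 2.51 (SE 0.50, adjusted p = 0.0362) and Jun 2.06 (SE 0.36, adjusted p = 0.0309). Dusp1 at 2.46 (adjusted p = 0.0744), Fos at 2.35 (adjusted p = 0.0713) and Junb at 1.93 (adjusted p = 0.0685) did not pass. Of the wider early response list 32 of 56 were higher and 0 lower, with a median of 2.45 against 0.05 over all genes, and the 4 with the smallest p were Sik1 (3.81), Id1 (2.67), Per1 (3.75) and Fosl1 (4.60). Of 13 heat shock and chaperone genes 1 was higher and 3 were lower, with a median of -0.40. Beside these, 5 of 9 monocyte and macrophage markers and 4 of 8 GMP markers were lower. Higher were 3 of 5 megakaryocyte markers, and 0 of 9 neutrophil markers were called in either direction. The part of these lists in the result was not tested. Leaving out any 1 of the 8 arrays without disease left Nr4a1 alone of the 10 past the threshold, beside 47 to 68 of 13712 genes called higher. Without 1 diseased array only 1 remains in that cell type, so no count is given. In every setting this difference stayed positive for all 10 genes, at lowest 1.27 for Fos. The diseased GMP arrays lay below 0 for Xist and the 4 other double mutant arrays above 0, so this difference cannot be told apart from the sex pattern or from the slides.

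**Figure D4:**
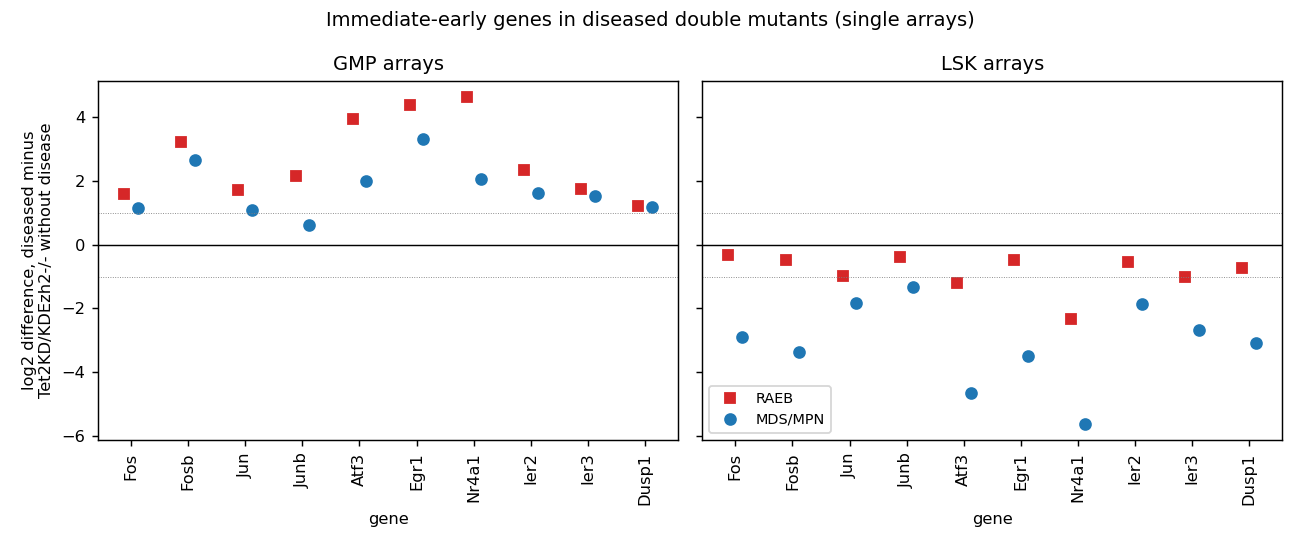
Log2 difference (vertical axes) of diseased minus disease-free Tet2KD/KDEzh2-/- arrays for the 10 immediate-early genes, squares for RAEB and circles for MDS/MPN, single arrays with no error; dotted lines mark 2-fold. All GMP values on the left lie above 0 (0.61 to 4.61) and all LSK values on the right below it (-5.60 to -0.32).

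RAEB against MDS/MPN was positive for all 10 genes. The difference was 2.92 for Nr4a1 (SE 1.93) and 2.68 for Atf3 (SE 1.58), with a median of 1.37 over the 10 genes against -0.07 over all genes. None of the 10 passed (adjusted p = 0.974 for each, limma, 2 arrays against 2), with 0.0% of genes called and 365 at an unadjusted p under 0.05. The difference was uneven: its median was 0.68 in GMPs, where Dusp1 had 0.03, and 2.47 in LSK cells, where the MDS/MPN array is the low one. Within each cell type the difference was positive for all 10 genes, 0.03 to 2.55 in GMPs and 0.85 to 3.44 in LSK cells. Without that LSK array the fitted value turned negative for 7 of the 10 genes. That fit stands in for the missing array with a GMP minus LSK difference shared by all conditions, so no measured difference was negative.

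GMPs were lower than LSK cells for some of the 10 genes. Over all 12 arrays Junb fell by 1.58 (SE 0.40, adjusted p = 0.0146) and Egr1 fell by 2.36 (SE 0.82, adjusted p = 0.048) in GMPs, 2 of 10 genes against 44.5% of genes called in either direction and 18.9% called lower. Nr4a1 had the largest difference, -2.88 (SE 1.11, adjusted p = 0.068). The remaining 7 lay between -1.02 for Ier3 and 0.93 for Atf3, and the median of all genes was 0.16. In the 8 arrays without disease, which shared 1 slide, 8 of 10 were lower in GMPs, against 21.7% of genes called lower. There Nr4a1 fell by 5.01 (SE 0.37, adjusted p = 0.000369), Egr1 by 3.83 (SE 0.39, adjusted p = 0.000931), Junb by 2.23 (SE 0.31, adjusted p = 0.00269) and Ier3 by 1.97 (SE 0.24, adjusted p = 0.00166). Ier2 fell by 1.69, Fosb by 1.33, Fos by 0.88 and Jun by 0.77, with adjusted p of 0.00577 to 0.0301, whereas Dusp1 at -0.74 (adjusted p = 0.0526) and Atf3 at -0.70 (adjusted p = 0.294) did not pass. LSK and GMP arrays lay in different rows of that slide, so row and cell type cannot be told apart. Over all 12 arrays, leaving out 1 array gave 1 to 4 genes lower: 4 without either MDS/MPN array, 3 without either RAEB array and Junb alone without any of the 8 others. In these fits 2060 to 2651 of all 13712 genes were called lower. Of the wider early response list 4 of 56 were higher and 15 lower, led by Cebpd at 3.26 and Egr4 at -3.68. Of 30 upstream kinases and factors 9 were higher and 5 lower, led by Mrtfb at -1.16, and of 13 heat shock and chaperone genes 5 were higher and 0 lower. Beside these list counts, 3523 of all 13712 genes tested were called higher in GMPs and 2585 lower.

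**Figure D5:**
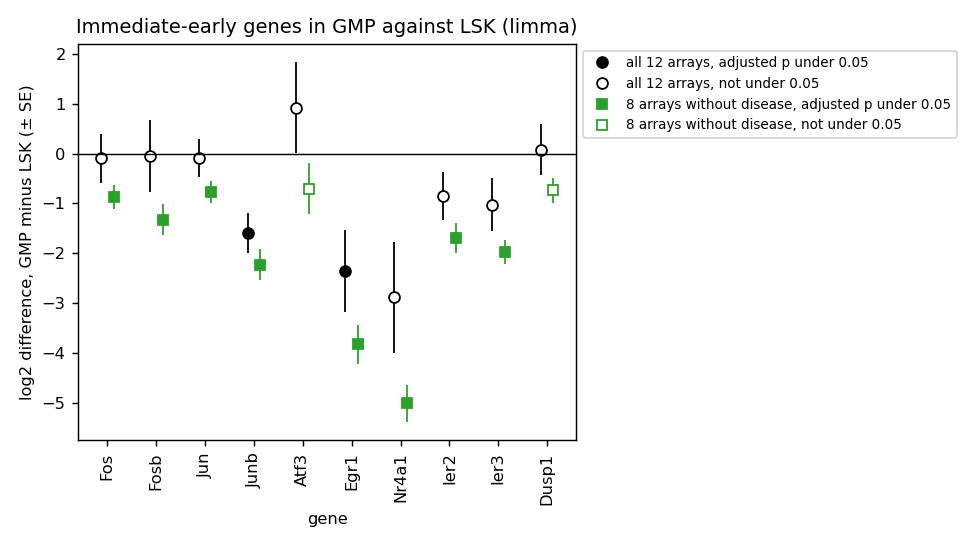
Log2 difference of GMP minus LSK (vertical axis, bars are the standard error from limma) for the 10 immediate-early genes, over all 12 arrays (black circles) and over the 8 arrays without disease (green squares); filled symbols have an adjusted p under 0.05. Filled symbols number 2 over all arrays and 8 without disease, and every green square lies below its black circle.

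Tet2KD/KD arrays had higher signals of the 10 genes than wild-type arrays. Tet2KD/KD LSK cells were higher than wild-type LSK cells by at least 2-fold for 9 of 10, all but Jun, against 2.38% of genes tested, with a median of 1.27 and the largest difference, 2.56, for Atf3. Tet2KD/KD GMPs were higher than wild-type GMPs by at least 2-fold for Fosb, Egr1, Nr4a1, Ier2 and Atf3, 5 of 10 against 1.44% of genes, and all 10 differences were positive, with a median of 1.01. Beside these differences, the summed signal of the neutrophil markers was 32.2 in Tet2KD/KD and 45.9 in wild-type GMPs, and 20.6 in Tet2KD/KD and 91.9 in wild-type LSK cells. Xist lay below 0 on both Tet2KD/KD arrays and above 0 on both wild-type arrays. The part of neutrophils was not tested, and Tet2 knockdown cannot be told apart from the sex pattern in these pairs. On an Ezh2-/- background no such difference was seen. The double mutant was higher than Ezh2-/- by 2-fold for 0 of 10 genes in LSK cells (1.39% of genes), where Atf3 was lower by 2-fold, and lower by 2-fold for Fosb and Egr1, 2 of 10, in GMPs (1.68% of genes). These pairs also differed in Xist, below 0 on both Ezh2-/- arrays and above 0 on both double mutant arrays. In the limma test over the 8 arrays without disease, Tet2 knockdown had differences of 0.30 to 0.71, and none of the 10 passed (adjusted p = 0.818 to 0.884), with 0.0% of genes called and 788 at an unadjusted p under 0.05.

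Ezh2-/- LSK cells had higher signals than wild-type LSK cells, whereas on the Tet2KD/KD background Ezh2 loss went with lower signals in GMPs and with small negative differences in LSK cells. Ezh2-/- LSK cells were higher than wild-type LSK cells by at least 2-fold for Fosb, Junb, Nr4a1 and Atf3, 4 of 10 against 3.26% of genes, and all 10 differences were positive, with a median of 0.93. The neutrophil markers summed to 19.4 in these Ezh2-/- and 91.9 in wild-type LSK cells, a part that was not tested, and Xist lay below 0 on the Ezh2-/- arrays and above 0 on the wild-type arrays, so Ezh2 loss and the sex pattern cannot be told apart in these pairs. Ezh2-/- GMPs differed from wild-type GMPs by -0.61 for Junb to 0.59 for Fosb, with 0 of 10 lower by 2-fold (1.39% of genes). On the Tet2KD/KD background the double mutant was lower by at least 2-fold in GMPs for 8 of 10, all but Junb and Dusp1, against 2.07% of genes, and all 10 differences were negative, from -2.70 for Egr1 to -0.97 for Junb. In LSK cells 0 of 10 were lower by 2-fold (2.54% of genes), from -0.85 for Atf3 to -0.03 for Nr4a1, and 2 of the 10 turned positive with quantile normalization. Xist lay below 0 on both Tet2KD/KD arrays and above 0 on both double mutant arrays. Ezh2 loss and the sex pattern thus cannot be told apart on this background either. As an effect shared by both cell types, Ezh2 loss gave -0.47 for Egr1 to -0.08 for Fosb, and none of the 10 passed (adjusted p = 0.851 to 0.992), with 0.19% of genes called (limma, 26 genes, and 1204 at an unadjusted p under 0.05). The difference of the Ezh2 effect in GMP minus LSK was negative for all 10, from -0.68 for Dusp1 to -2.31 for Atf3, and none passed, with 0.0% of genes called and 802 at an unadjusted p under 0.05 (limma, lowest adjusted p of the 10 = 0.788). The corresponding difference for Tet2 knockdown was -0.83 for Dusp1 to 0.22 for Nr4a1, again with none of the 10 and 0.0% of genes called, and 266 genes at an unadjusted p under 0.05.

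The double mutant stood below the sum of both single mutants for all 10 genes in both cell types. The Tet2 by Ezh2 interaction was -3.09 for Atf3 (SE 1.02), -2.35 for Fosb (SE 0.63), -2.17 for Egr1 (SE 0.77), -1.85 for Nr4a1 (SE 0.74) and -1.25 for Fos (SE 0.48). Its median over the 10 was -1.18, against -0.09 over all genes, and it stayed negative for every gene in all 15 alternatives. Several of these could not change its value: other filters, the mean of a gene's probes, the value table and trended variance. Those that could were quantile normalization, normexp background correction and leaving out each array. In GMPs alone it was -3.02 for Egr1 to -0.36 for Junb, and in LSK cells alone -3.57 for Atf3 to -0.42 for Jun. None of the 10 passed (adjusted p = 0.784 to 0.956, limma), with 0.0365% of genes called and 707 at an unadjusted p under 0.05. Of the wider early response list 53 of 56 values were negative, with a median of -1.03, and of 13 heat shock genes all were negative, with a median of -0.50, with none called in either list. Among the heat shock genes Hspa1a had -6.04 (SE 1.0) and Hspb1 -4.06 (SE 1.21), both larger differences than that of Atf3. The Xist pattern has the same shape as this interaction, with both single mutants below 0 and wild-type and double mutant above 0 in each cell type, so the interaction cannot be told apart from the sex pattern. In GMPs the mean of the 10 genes was 3.38 to 5.61 on the 4 arrays with Xist below 0, against 2.92 and 3.46 on the other 2, with an overlap. In LSK cells it was 5.76 and 6.00 on the 2 arrays with Xist below 0, against 2.55 to 5.63 on the other 4, without one.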

How the data were processed

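Total RNA of sorted LSK cells and GMPs was labelled with Cy3 and hybridised to 12 one-colour Agilent arrays, 1 for each of 2 cell types and 6 conditions. Per the file headers, the authors extracted the deposited intensity values with Feature Extraction 10.7.1.1, which subtracts background, and the headers name build mm9. The other deposited columns used are the flags for spots above background, saturated or outlying. The authors' deposited value table equals the processed signal at all 62976 spots. From these, log2 of the deposited processed signal minus log2 of the array's 75th percentile over gene spots was computed, without control and outlier spots, and copies of a probe were averaged. Of 55681 gene probes 26762 matched 1 symbol through RefSeq accessions, 0 matched several and 28919 none. 97.9% of NM and NR accessions matched. The brightest probe stood for a gene, and genes above background on 2 or more arrays were tested, 13712 of 20284. Tests were limma 3.58.1 in R 4.3.3 with p-values adjusted by Benjamini and Hochberg's method across the 13712 genes and called under 0.05, and the fits were tested on simulated data. Tables were made with pandas 2.3.3 and numpy 2.4.6. Cell types were compared over 12 arrays with condition in the model, and genotypes over the 8 arrays without disease. Single arrays were compared by a 2-fold threshold without a test. Alternatives were quantile normalization, normexp background correction with an offset of 50, other filters, the mean of a gene's probes, the value table, trended variance and leaving out each array. Genes outside the 10 were named by rule: the 10 most alike and 5 most opposite to their mean, and up to 4 of each list by smallest p; other names were chosen after their values were seen. The 10 genes and all lists were chosen with earlier results of these data known. Precision is limited by the number of arrays. The upstream list's result for disease in GMP minus LSK is not reported here.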

Additional observations from a re-analysis of the deposited data

Results flagged for a closer look

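Egr1 on the LSK array with MDS/MPN, at 2.56, lay far from the other LSK arrays, the nearest of which was at 5.15. It was the only one of 22 groups of 6 arrays examined in which 1 array stood apart in this way, and chance alone marks about 1 in 20.

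For all 10 genes both diseased GMP arrays were higher than the double mutant GMP array and both diseased LSK arrays were lower than the double mutant LSK array. GMP minus LSK on the diseased arrays was also set against GMP minus LSK averaged over all arrays without disease. The difference was 6.40 for Nr4a1, 4.89 for Atf3, 4.41 for Egr1, 3.85 for Fosb, 2.86 for Ier3, 2.51 for Ier2, 2.46 for Dusp1, 2.35 for Fos, 2.06 for Jun and 1.93 for Junb. The limma test of this difference was chosen after these signs had been seen and is no independent support for them. It passed for 7 of the 10, not for Dusp1, Fos and Junb, beside 589 of 13712 genes called higher. With any 1 array without disease left out it passed for Nr4a1 alone, beside 47 to 68 genes. With 1 diseased array left out only 1 remains in that cell type, so no count is given.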

How the results depend on the processing

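Values with 1 array for each cell type and condition depend on single arrays, and no value for a mouse-to-mouse spread can be had. GMP against LSK pairs the arrays of each condition through the condition term. By replicate number no pairing exists. No paired analysis was possible because the labels number no replicates, beyond that pairing by condition. With the filter on dim probes removed, 1 of the 10 genes was lower in GMPs, beside 2340 of 20284 genes. In the arrays without disease 8 were, beside 2975 of 13712 genes. Without any 1 array the count was 1 to 4, beside 2060 to 2651 genes. Signs turned for Atf3 (-0.70 without disease) and Dusp1 (-0.36 with quantile normalization, -0.015 with normexp, -0.74 without disease) in GMP against LSK. In diseased against other double mutants they turned for Jun (0.027 with normexp) and Atf3 (-0.19 with quantile normalization). The cause was not tested. The median of the 10 genes in that contrast was 1.80 within GMPs and -1.88 within LSK cells, and for RAEB against MDS/MPN 0.68 within GMPs and 2.47 within LSK cells. The median correlation was 0.909 with Spearman ranks, 0.846 with no centring, 0.907 without disease, 0.882 without the 2 farthest arrays and 0.897 to 0.944 without any 1 array. For disease in GMP minus LSK, 6 to 10 of the 10 genes passed under the other settings. Beside them, 459 of 13712 genes were called higher with quantile normalization, 2266 with normexp and 4428 of 20284 without the filter. Without any 1 of the 8 arrays without disease Nr4a1 alone passed, beside 47 to 68 genes called higher. Without 1 diseased array only 1 remains in that cell type, so no count is given. The sign of this difference turned in 0 of 190 values. Neither the Tet2 by Ezh2 interaction nor Ezh2 loss in GMP minus LSK turned for any of the 10 genes, in 150 values each. In all 3 of these counts, some values repeat the main estimate and could not turn. They are those with other filters, the mean of a gene's probes, the value table and trended variance. In disease in GMP minus LSK, leaving out either array of a condition also gave the same fit, because condition is in the model. Leaving out 1 array in turn changed the sign for the genes that follow. In GMP against LSK the range was Fos -0.62 to 0.19, Fosb -0.79 to 0.41, Jun -0.38 to 0.20 and Dusp1 -0.48 to 0.37. For Ezh2 loss the range was Fos -0.53 to 0.12, Fosb -0.55 to 0.47, Junb -0.51 to 0.063, Egr1 -0.88 to 0.16, Nr4a1 -0.54 to 0.39 and Atf3 -0.97 to 0.41. For Tet2 knockdown the range was Fosb -0.095 to 0.92, Egr1 -0.098 to 1.02, Nr4a1 -0.052 to 0.92 and Atf3 -0.038 to 1.43. For Tet2 knockdown in GMP minus LSK the range was Fos -1.13 to 0.39, Fosb -1.73 to 0.93, Jun -1.02 to 0.34, Junb -0.82 to 1.03, Egr1 -2.04 to 0.94, Nr4a1 -1.07 to 1.51, Ier2 -0.87 to 0.78, Ier3 -0.96 to 0.35 and Atf3 -2.10 to 1.82. For diseased against other double mutants the range was Fos -0.97 to 0.73, Fosb -0.87 to 1.89, Jun -0.88 to 0.86, Junb -0.31 to 0.82, Egr1 -0.81 to 2.66, Nr4a1 -2.13 to 1.51, Ier2 -0.51 to 1.28, Ier3 -1.06 to 0.84, Atf3 -1.55 to 1.59 and Dusp1 -1.23 to 0.53. For RAEB against MDS/MPN the range was Fos -0.086 to 3.08, Fosb -0.50 to 3.96, Jun -0.14 to 1.63, Egr1 -0.32 to 4.39, Ier2 -0.17 to 2.19, Ier3 -0.64 to 2.51 and Dusp1 -0.48 to 2.88. Within each cell type this last difference was positive for all 10 genes. Its negative values rest on the GMP minus LSK difference that the model shares over conditions.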
